A study of Homo sapiens with 8 samples.

Results

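The 37 genes described here are the aminoacyl-tRNA synthetases of the cytosol (20 genes), those of the mitochondrion (16 genes) and XPOT, the nuclear exporter of tRNA. They were chosen by name, as the rows of each count table that carry these symbols. All 37 were listed in both tables, among 42125 genes in that of the TFAP2C experiment and 23393 in that of the UBA2 experiment, and all 37 passed the filter on low counts in both. Symbols follow the older names in the tables, so SARS is the gene now called SARS1. The letters before "ARS" give the amino acid in its one-letter code, and a final 2 marks the mitochondrial enzyme.

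mRNA-seq was performed on HCT116, a human colorectal cancer cell line, in 8 libraries. All 8 came from cells that stably carry Tet-On shSAE2, an inducible shRNA against UBA2 (also called SAE2), which is a subunit of the enzyme that activates SUMO for its attachment to proteins. In the TFAP2C experiment the cells received a control siRNA (2 libraries) or an siRNA against the transcription factor TFAP2C (2 libraries) for 48 hrs. In the UBA2 experiment they received DMSO (2 libraries) or doxycyclin at 1 ug/mL (2 libraries) for 5 days, so the agent itself differs between these groups, and no group with doxycyclin and no shRNA was among the libraries.

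Aminoacyl-tRNA synthetases join each amino acid to its tRNA, and the charged tRNA then enters translation. The cytosol and the mitochondrion have mostly separate enzymes, all encoded in the nucleus, while GARS and KARS each supply both compartments from the same gene. Several cytosolic enzymes are held together in the multisynthetase complex. When charged tRNA runs short, and under other stresses, cells phosphorylate eIF2 and make more of the transcription factor ATF4, which is known to act on genes of amino acid synthesis and transport and on cytosolic synthetases, through an element whose core is TGATGNAA.

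Libraries held between 20785035 and 24465109 counts in the TFAP2C experiment and between 18213739 and 20607813 in the UBA2 experiment. TFAP2C fell from 18.9 and 20.5 CPM (gene counts scaled to a common library size) with control siRNA to 3.46 and 4.30 CPM in TFAP2C KD, a log2 fold change of -2.34 (adjusted p = 7.67e-06). UBA2 had 162 and 146 CPM in the controls and 147 and 153 CPM with doxycyclin, a log2 fold change of -0.036 (95% confidence interval -0.15 to 0.078), so its mRNA does not check the label, and these are called the libraries labelled UBA2 KD. The TFAP2C KD replicates differed from each other more than any other pair, with a chi-square of 10.7 per degree of freedom over genes against 2.74 to 2.99 for the rest. The 6 epithelial markers EPCAM, CDH1, KRT8, KRT18, KRT19 and CDX2 were detected in all libraries. Of other cell types, COL1A2 was at 0 in every library and PTPRC and PECAM1 were under 1 CPM, while COL1A1, VIM and ZEB1 were detected at up to 47.5, 7.79 and 9.02 CPM.

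In the 30-base stretches that follow, the core TGATGNAA stands in capitals. They are shown because 7 of the 8 genes are cytosolic synthetases whose mRNA was higher in the libraries labelled UBA2 KD. The windows searched run from 250 bases before to 50 bases after the start of each gene in RefSeq (GRCh38.p14), on both strands, and 31 of the 37 members had a window. Each stretch is written 5′ to 3′ on the strand that reads the core.
CARS, chr11:3057407-3057436, plus strand: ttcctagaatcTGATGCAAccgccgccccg
AARS, chr16:70289675-70289704, plus strand: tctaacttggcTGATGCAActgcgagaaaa
GARS, chr7:30594834-30594863, minus strand: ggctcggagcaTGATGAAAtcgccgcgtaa
MARS, chr12:57488053-57488082, minus strand: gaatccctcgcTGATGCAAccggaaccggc
TARS, chr5:33440956-33440985, minus strand: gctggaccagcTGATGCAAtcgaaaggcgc
IARS, chr9:92293692-92293721, plus strand: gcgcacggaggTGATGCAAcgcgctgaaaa
NARS, chr18:57621804-57621833, minus strand: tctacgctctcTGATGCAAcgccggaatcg
YARS2, chr12:32756076-32756105, minus strand: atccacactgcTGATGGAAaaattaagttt

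The core was found in 3.62% of all 35116 windows and in 4.46% of the 27305 genes with a window. It was found in 7 of 16 cytosolic synthetases with a window (43.8%), in 1 of 14 mitochondrial ones and not in that of XPOT. The first base of the match lay at -2 in CARS, -4 in MARS, 3 in TARS, -13 in IARS, 15 in NARS and -33 in GARS, counted along the gene from its start, and at -187 in AARS and -197 in YARS2. In 6 of the 8 genes it was read on the strand opposite to the gene, and in NARS and YARS2 on the strand of the gene. The E-box CACGTG, a palindrome to which MYC and related factors are known to bind, was found in 7.26% of all windows. By gene, it was found in 8.77% of the 27305 genes with a window. Of the 31 members it was found in 4 (12.9%), IARS, CARS2, EARS2 and MARS2, and it overlapped the TGATGNAA match in 0 of the member windows. Both motifs were chosen with the expression of the members known, and a match is a description of the letters in the window only.

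Before any change, the cytosolic synthetases were the more abundant set. In the controls of the UBA2 experiment their median level was 80.1 CPM per kb of listed gene length (32.7 to 152), against 15.4 CPM per kb (3.51 to 82.8) for the mitochondrial genes. GARS stood highest at 152 ± 3.88 CPM per kb (SD, n = 2), followed by IARS at 136 ± 6.91, TARS at 132 ± 5.51 and KARS at 132 ± 0.128, and the last 3 differed by less than their spread. IARS2, the isoleucyl enzyme of the mitochondrion, was the exception among mitochondrial genes at 82.8 ± 1.54 CPM per kb (SD, n = 2), and the other 15 lay below every cytosolic synthetase. WARS2, the mitochondrial tryptophanyl enzyme, was lowest at 3.51 ± 0.39 CPM per kb (SD, n = 2). With control siRNA the medians were 45.9 and 6.92 CPM per kb. Of the 17 pairs of a cytosolic and a mitochondrial gene for the same amino acid, the cytosolic gene was the more abundant per kb in 17 in both experiments, with a median ratio of 7.01 (from 1.17 for HARS upwards) in the UBA2 controls and 5.34 (from 1.06, also for HARS) with control siRNA. Gene lengths come from different annotations in the tables, so levels per kb are not compared between experiments.

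**Figure D1:**
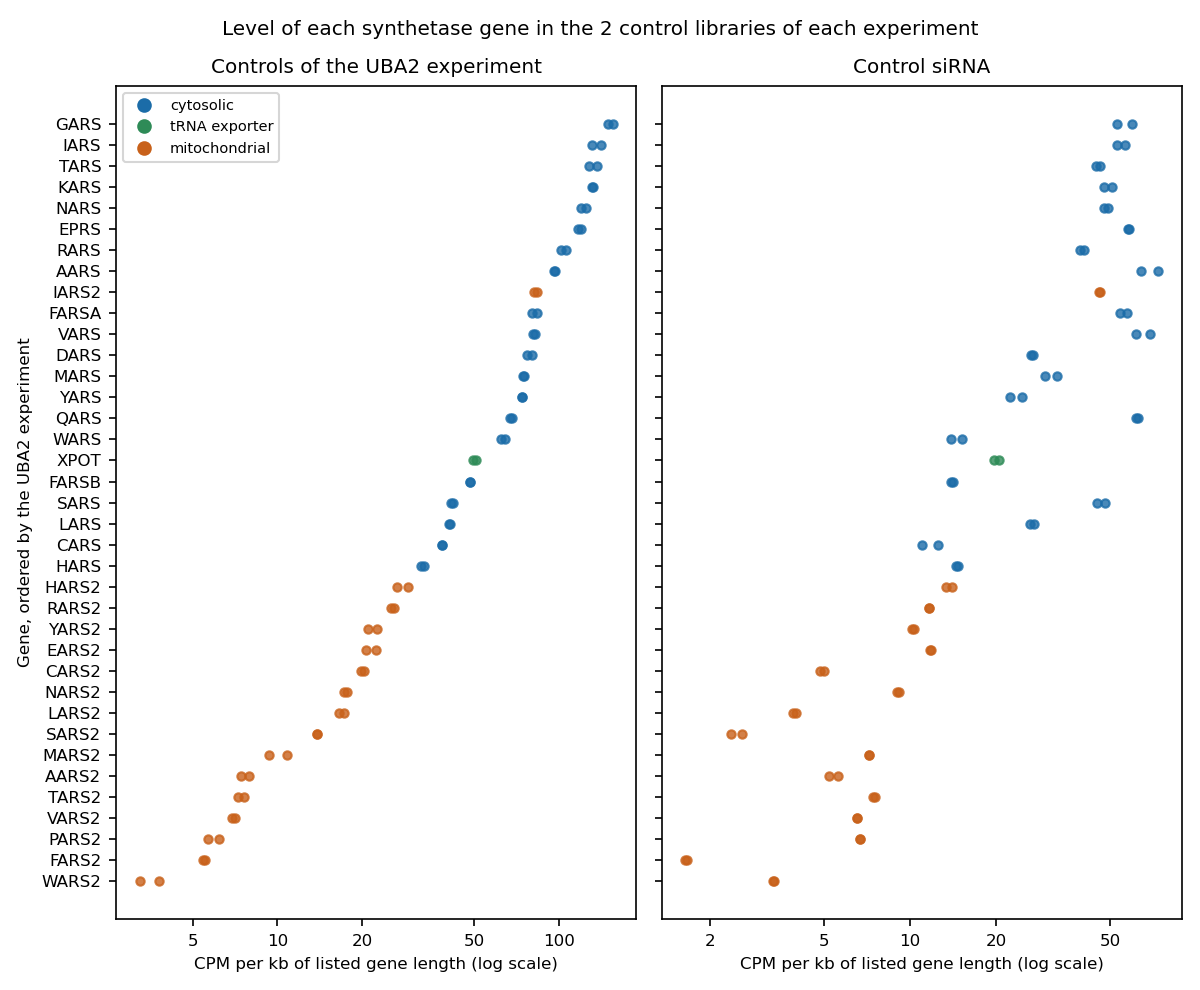
Level of each member in the control libraries, in CPM per kb of listed gene length on a log axis, with a point for each of 2 libraries and genes ordered by the UBA2 experiment. On the left the cytosolic genes (blue) lie above the mitochondrial genes (orange) apart from IARS2 at 82.8 CPM per kb, and XPOT (green) lies at 50.2 CPM per kb, while on the right 13 of the 16 mitochondrial genes lie below all cytosolic genes by their means, and HARS2, EARS2 and IARS2 lie above CARS (EARS2 within the spread of CARS).

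Next, the libraries labelled UBA2 KD were compared with their controls, to ask whether the genes for tRNA charging differ with the knockdown that the label names. Of the 20 cytosolic synthetases, 13 rose and 0 fell (adjusted p under 0.05, edgeR), and XPOT rose. Across all 13381 genes tested, 9.98% were called, 5.52% as higher and 4.47% as lower, while the share of cytosolic synthetases called higher was 65%. The mitochondrial synthetases gave 0 calls of 16 in edgeR and 0 in DESeq2, with 1 gene (WARS2) under an unadjusted p of 0.05 against 22.7% of all genes. The median log2 fold change was 0.31 for cytosolic and 0.046 for mitochondrial synthetases, beside -0.00042 for all genes tested. It was above 0 in 25 of the 37 members and in 49.9% of all genes. In bulk libraries more mRNA per cell and more cells with the mRNA cannot be told apart.

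**Figure D2:**
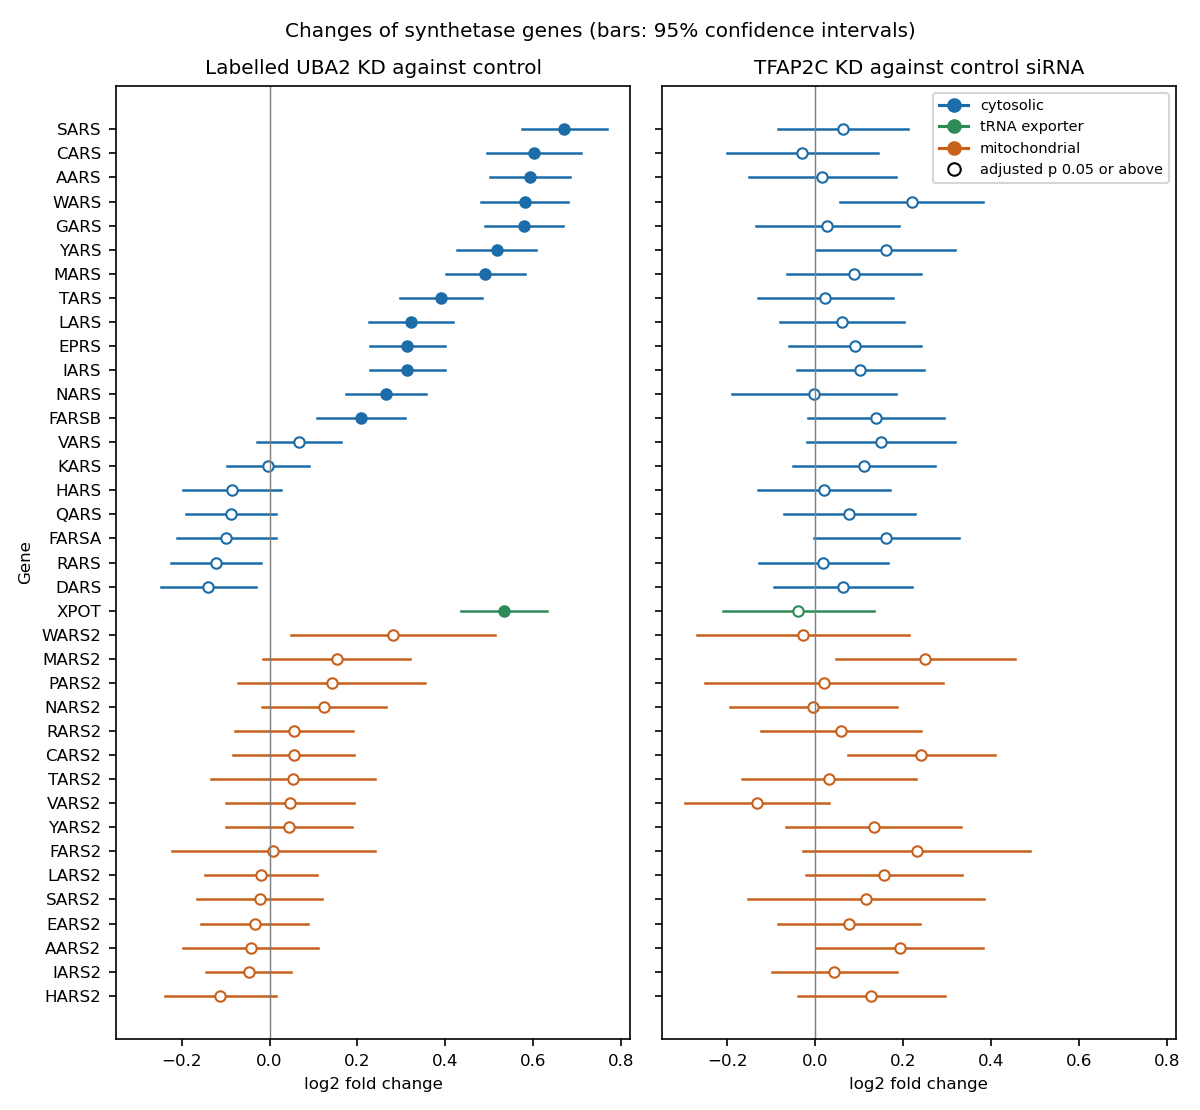
Log2 fold change of each of the 37 members, with its 95% confidence interval, in the libraries labelled UBA2 KD against control (left) and in TFAP2C KD against control siRNA (right). Filled points passed an adjusted p of 0.05 in edgeR: 13 cytosolic synthetases and XPOT on the left, from 0.21 for FARSB to 0.67 for SARS, and none on the right.

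SARS, the seryl-tRNA synthetase (chr1:109756515-109780804, hg19), had 205 and 201 CPM in the controls and 321 and 326 CPM in the libraries labelled UBA2 KD. This log2 fold change of 0.67 (SE 0.048, adjusted p = 2.47e-12) was the largest among the members. CARS, the cysteinyl enzyme (chr11:3022152-3078681), had 118 and 119 CPM in the controls against 178 and 181 CPM, a log2 fold change of 0.60 (SE 0.053, adjusted p = 2.91e-10). AARS, the alanyl enzyme (chr16:70286297-70323412), had 327 and 328 CPM against 502 and 486 CPM, a log2 fold change of 0.59 (SE 0.045, adjusted p = 9.69e-12). In these genes both libraries labelled UBA2 KD lay above both controls by many times the gap between replicates. WARS, the tryptophanyl enzyme (chr14:100800125-100842680), had 208 and 215 CPM against 323 and 310.2 CPM, a log2 fold change of 0.58 (SE 0.048, adjusted p = 9.31e-11). GARS, the glycyl enzyme of cytosol and mitochondrion (chr7:30634181-30673648), had 409 and 424 CPM against 628 and 616 CPM, a log2 fold change of 0.58 (SE 0.043, adjusted p = 9.04e-12). YARS, the tyrosyl enzyme (chr1:33240840-33283633), had 389 and 389.7 CPM against 569 and 545 CPM, a log2 fold change of 0.52 (SE 0.044, adjusted p = 1.62e-10). None of these 6 enzymes belongs to the multisynthetase complex, and in each the groups did not overlap.

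Smaller rises were seen in TARS, NARS and FARSB, which also lie outside the complex. TARS, the threonyl enzyme (chr5:33440802-33468196), had 428 and 403 CPM in the controls and 558 and 531 CPM in the libraries labelled UBA2 KD, a log2 fold change of 0.39 (SE 0.045, adjusted p = 1.09e-07). NARS, the asparaginyl enzyme (chr18:55267894-55289177), had 369 and 355 CPM against 430.1 and 440.0 CPM, a log2 fold change of 0.26 (SE 0.045, adjusted p = 8.18e-05). FARSB, which encodes the beta subunit of the phenylalanyl enzyme (chr2:223436162-223520827), had 193 and 191 CPM against 219.6 and 224 CPM, a log2 fold change of 0.21 (SE 0.049, adjusted p = 0.00462). The call of FARSB was lost without control replicate 2 (adjusted p = 0.0503). FARSA, the alpha subunit of the same enzyme (chr19:13033284-13044558), had 154 and 148 CPM in the controls and 147 and 135 CPM, a log2 fold change of -0.098 (95% confidence interval -0.21 to 0.015, adjusted p = 0.304). The subunit genes thus differed in their calls, and the difference between their changes was not tested.

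**Figure D3:**
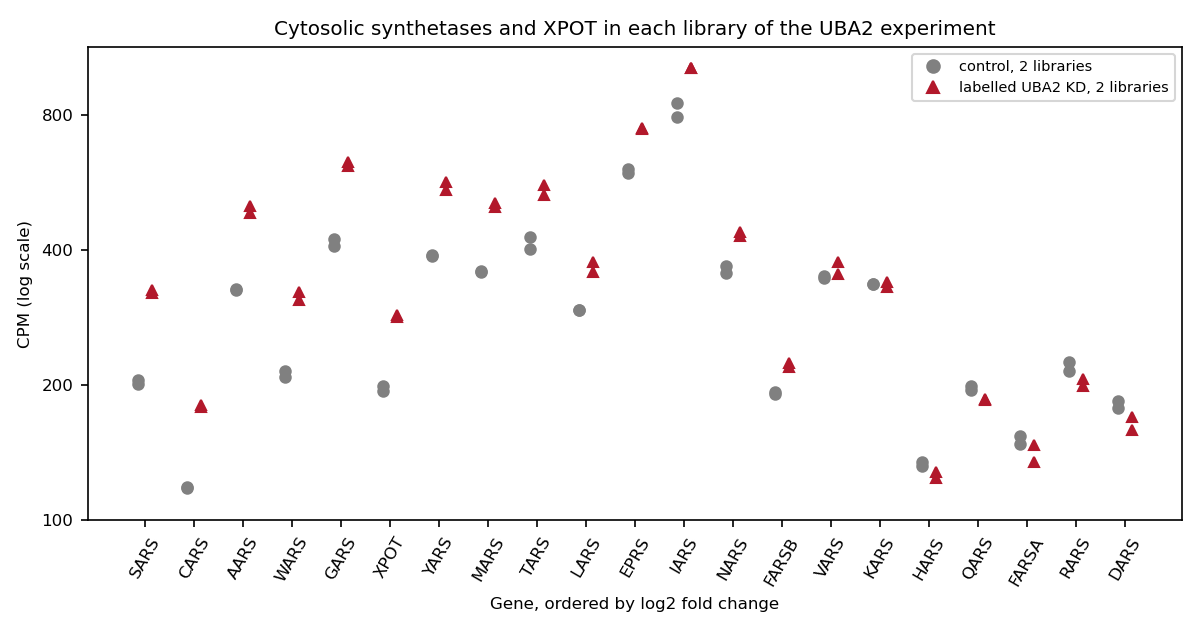
CPM of the 20 cytosolic synthetases and XPOT in each library of the UBA2 experiment, on a log axis, with genes ordered by log2 fold change. Grey circles are the 2 control libraries and red triangles the 2 libraries labelled UBA2 KD, which lie above the controls from SARS to VARS, overlap them in KARS and lie below them from HARS to DARS.

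The multisynthetase complex was split. Of its 8 synthetase genes 4 rose and 0 fell, with a median log2 fold change of 0.16. Outside it, 9 of the 12 cytosolic genes were higher, with a median of 0.45. Of all genes tested, 5.52% were called higher. MARS, the methionyl enzyme (chr12:57881077-57911334), had 358 and 359 CPM in the controls and 509.5 and 498 CPM in the libraries labelled UBA2 KD, a log2 fold change of 0.49 (SE 0.044, adjusted p = 4.87e-10). LARS, the leucyl enzyme (chr5:145492589-145562294), had 295 and 294 CPM against 358 and 377 CPM, a log2 fold change of 0.32 (SE 0.047, adjusted p = 6.64e-06). In both, the groups were well apart. EPRS, the joined glutamyl and prolyl enzyme (chr1:220141942-220220000), had 607 and 595 CPM against 748 and 745 CPM, a log2 fold change of 0.31 (SE 0.042, adjusted p = 1.37e-06). IARS, the isoleucyl enzyme (chr9:94972490-95056038), had 850.4 and 791 CPM against 1020.1 and 1020.2 CPM, a log2 fold change of 0.31 (SE 0.042, adjusted p = 1.79e-06). The last 2 had the highest CPM of all synthetases in the controls of this experiment, and their groups did not overlap either.

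The other 4 synthetases of the complex, those for lysine, glutamine, arginine and aspartate, did not pass the test. KARS (chr16:75661622-75682541) had 336 and 337 CPM in the controls and 332 and 339 CPM in the libraries labelled UBA2 KD, and its log2 fold change had a 95% confidence interval from -0.096 to 0.089. DARS (chr2:136664254-136743222) had 185 and 178 CPM against 159 and 170.1 CPM, a log2 fold change of -0.14 (SE 0.053, adjusted p = 0.0968). RARS had a log2 fold change of -0.12 (adjusted p = 0.133) and QARS of -0.088 (adjusted p = 0.309). DARS passed as lower without UBA2 KD replicate 2 (adjusted p = 0.0285) and, like RARS, when libraries were scaled by their size only (adjusted p = 0.034 and 0.0496). Among enzymes outside the complex HARS, with a log2 fold change of -0.086, and VARS, with 0.067, also did not pass. Across the 7 cytosolic genes not called, the 95% confidence intervals reached from -15.8% to 11.9%, so a rise of the size seen in SARS lay outside all of them. Of 20 cytosolic genes the groups overlapped only in KARS, and 14 lay wholly higher and 5 wholly lower with that label. Of all genes 51.3% did not overlap, 25.5% higher and 25.8% lower.

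By structural class, the synthetases fall into class I and class II, which fold around different catalytic domains. In the cytosol 6 of 9 class I genes and 6 of 10 class II genes were higher, beside 5.52% of all genes tested. EPRS, which joins an enzyme of each class, was higher too. The median log2 fold changes of the cytosolic genes were 0.32 for class I and 0.24 for class II. Summed over all 20 cytosolic genes, the level was 6334 and 6226 CPM in the controls and 7894 and 7813 CPM in the libraries labelled UBA2 KD, 25.0% higher in the mean. The sum over the 16 mitochondrial genes was 953 and 939 CPM against 945 and 943 CPM, and these groups overlapped.

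XPOT, which carries tRNA from the nucleus to the cytosol (chr12:64798153-64842463), had 199 and 194 CPM in the controls and 286 and 283 CPM in the libraries labelled UBA2 KD. Its log2 fold change of 0.53 (SE 0.048, adjusted p = 5.90e-10) had a 95% confidence interval within the range of the cytosolic synthetases that rose. XPO5, another exporter of RNA and one of the partner genes described further on, had 224 and 222 CPM against 245 and 236 CPM, and did not pass the test (adjusted p = 0.182).

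None of the mitochondrial synthetases passed the test, and their log2 fold changes lay between -0.11 (HARS2) and 0.28 (WARS2). In 4 of the 16 the libraries labelled UBA2 KD lay wholly above the controls, in 3 wholly below, and in 9 the groups overlapped, which is no more separation than in all genes (25.5% wholly above and 25.8% wholly below). IARS2 (chr1:220267455-220321383), the member with enough counts to be measured as precisely as a cytosolic gene, had 296 and 288 CPM in the controls against 278 and 286 CPM, a log2 fold change of -0.048 (95% confidence interval -0.14 to 0.048). WARS2 (chr1:119573839-119683295) had 11.2 and 13.1 CPM against 13.6 and 16.1 CPM, with an adjusted p of 0.123, and it passed without UBA2 KD replicate 1 (log2 fold change 0.40, adjusted p = 0.0403). Mitochondrial genes had 200 to 6008 counts in a library and cytosolic genes 2213 to 18995, so changes of the smaller mitochondrial genes were less well resolved. The upper ends of the confidence intervals reached 42.7% (WARS2), a change of the size seen in some cytosolic genes.

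Within each library, the ratio of a cytosolic gene to its mitochondrial counterpart does not depend on library scaling. In 13 of the 17 pairs this ratio was higher in both libraries labelled UBA2 KD than in both controls, in 1 pair (RARS and RARS2) it was lower, and in 3 the groups overlapped. The pairs share genes, since EPRS has both EARS2 and PARS2 as counterparts and FARS2 is set against both FARSA and FARSB, and the ratios carry no test. The log2 ratio of SARS to SARS2 was 2.23 and 2.20 in the controls and 2.88 and 2.94 in the libraries labelled UBA2 KD. That of AARS to AARS2 was 3.21 and 3.12 against 3.79 and 3.80. That of RARS to RARS2 was 2.10 and 2.06 against 1.86 and 1.94. The plot of ratios by library shows the spread of the controls around their mean, which was narrow beside the shift of the first 2 of these pairs. In TFAP2C KD the ratio was higher in 2 pairs and lower in 5, with overlap in 10. How often ratios of other pairs of genes separate was not computed, so these counts have no background of their own. Of single genes, 51.3% did not overlap in the UBA2 experiment and 44.7% in the TFAP2C experiment.

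**Figure D4:**
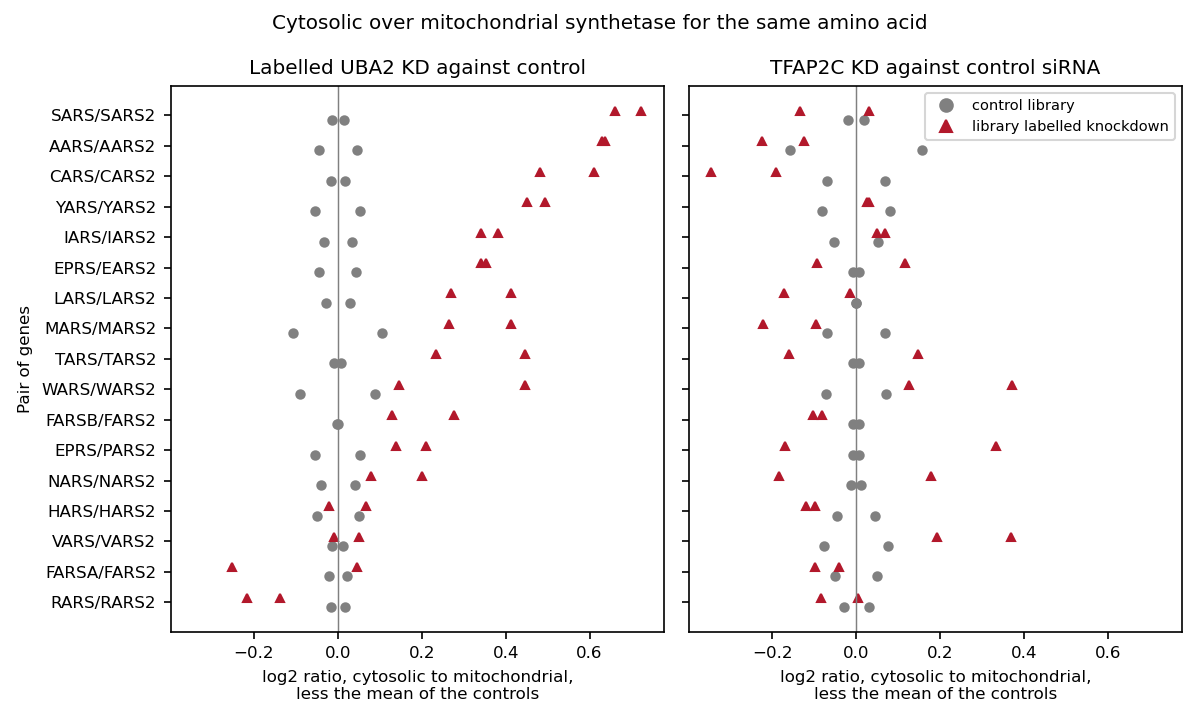
Log2 ratio of cytosolic to mitochondrial synthetase in each library, less the mean of the 2 controls, for 17 pairs in the UBA2 experiment (left) and the TFAP2C experiment (right). Grey circles are control libraries and red triangles the libraries labelled knockdown, which lie right of both controls in 13 pairs on the left and in 2 on the right.

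Reads of neighbouring genes could enter some counts, since the strand setting of the counting is not given in the sources used here. In the UBA2 experiment DDIT3 overlaps MARS by 964 bases on the opposite strand and rose by a log2 fold change of 1.34, and its count was 5.14% of that of MARS. In the same experiment HARS and HARS2 lie head to head and overlap by 295 bases, S100PBP overlaps YARS by 591 bases with a log2 fold change of 0.040, and TERF2IP overlaps KARS by 907 bases with 0.20. For SARS2 the overlapping genes FBXO17 and MRPS12 had counts of 21.0% and 128% of its own there, and ING1, which overlaps CARS2 by 981 bases, had 75.3% of the count of CARS2. In the TFAP2C experiment ING1 had 61.4% of the count of CARS2, and MRPS12 had 500% of that of SARS2. DNM1L overlapped YARS2 by 18161 bases in that experiment, with 385% of its count. ZMAT2, on the same strand as HARS2, had 113% of the count of HARS2. VARS and VARS2 are placed on an alternative haplotype of chromosome 6 in the UBA2 table, where reads can be split between copies, so their values there are uncertain.

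The promoter stretches shown at the start can be set beside these changes. All 7 cytosolic genes with a TGATGNAA core in the window (CARS, AARS, GARS, MARS, TARS, IARS and NARS) were among the 13 that rose. The core was found in 0 of the 5 cytosolic genes with a window that were not called. With or without the core, 11 of the 16 cytosolic genes with a window rose, where 5.52% of all genes tested rose. The share that rose among all genes with the core was not computed. The motif was chosen with the expression of the members known. The median log2 fold change was 0.49 for the 7 genes with the core and 0.45 for the 4 that rose without it (SARS, WARS, EPRS and FARSB). LARS and YARS rose and had no window. YARS2, the mitochondrial gene with the core, had 48.8 and 45.4 CPM in the controls and 50.4 and 46.8 CPM, and its groups overlapped.

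Of the 27 partner genes that serve tRNA maturation, charging or delivery, 26 were tested in the UBA2 experiment, 4 rose (15.4%, where 5.52% of all genes rose) and 0 fell, with a median log2 fold change of 0.056. The 4 were TSEN15, a subunit of the tRNA splicing endonuclease (0.43), DTD1, which removes D-amino acids from tRNA (0.26), SECISBP2, which acts in selenocysteine insertion (0.20), and EEF1A1, which brings charged tRNA to the ribosome (0.14). Their number was 2 when libraries were scaled by size only, in a fit of all 8 libraries and without control replicate 1, and 1 without control replicate 2. The 3 scaffold genes of the multisynthetase complex did not pass, with log2 fold changes of 0.10 for AIMP1, 0.18 for AIMP2 (adjusted p = 0.0614) and 0.074 for EEF1E1. The members of the mitochondrial amidotransferase GATB, GATC and QRSL1 had -0.0099, 0.039 and 0.083.

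The list of amino acid response genes, which ATF4 is known to act on or which act in the same pathway, moved with the cytosolic synthetases. Of 20 genes, 19 were tested, 16 rose (84.2%, where 5.52% of all genes rose) and 0 fell with the UBA2 KD label. Their median log2 fold change was 0.71. CHAC1, which degrades glutathione, had 8.12 and 9.54 CPM in the controls and 39.4 and 33.2 CPM, a log2 fold change of 2.03. TRIB3, a pseudokinase that binds ATF4, had 82.7 and 80.3 CPM against 219 and 195 CPM, a log2 fold change of 1.35. The groups were far apart in both, and both changes were larger than that of any synthetase. DDIT3 (1.34), SESN2 (1.23), DDIT4 (1.13) and ASNS, the asparagine synthetase (0.96), followed in the size of their log2 fold change. VLDLR had 0 counts in every library, and CTH, EIF2AK4 and ATF5 did not pass. These lists were drawn up with earlier results of these libraries known, so they are no independent evidence of direction. Of the 6 epithelial markers 3 were also higher (KRT18, KRT8 and EPCAM, by 0.25, 0.18 and 0.15), beside 5.52% of all genes. The summed level of the 6 markers was 2151 and 2169 CPM in the controls and 2500.0 and 2407 CPM in the libraries labelled UBA2 KD. The part of these marker changes in the result was not tested.

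In TFAP2C KD 0 of the 20 cytosolic and 0 of the 16 mitochondrial synthetases were called by edgeR, and 0 by DESeq2. Of all 14991 genes tested edgeR called 0.74%, 0.26% as higher and 0.48% as lower. With a share so low, 0 calls among the 37 members do not set them apart from all genes. At an unadjusted p under 0.05 there were 5 of the 37 members, near the share of 12.6% of all genes. They were 2 cytosolic genes (WARS and YARS) and 3 mitochondrial genes (MARS2, CARS2 and AARS2), all higher. CARS2, the mitochondrial cysteinyl enzyme, had 50.4 and 52.1 CPM with control siRNA and 62.1 and 58.9 CPM in TFAP2C KD, a log2 fold change of 0.24 (SE 0.077, adjusted p = 0.215). MARS2, the mitochondrial methionyl enzyme, had 21.7 and 21.6 CPM against 26.9 and 24.6 CPM, a log2 fold change of 0.25 (SE 0.093, adjusted p = 0.291). WARS had 88.1 and 96.3 CPM against 109.7 and 105 CPM, a log2 fold change of 0.22 (SE 0.075, adjusted p = 0.245). In these 3 genes the groups did not overlap, but the difference did not pass after adjustment. XPOT had 143 and 149 CPM against 132 and 152 CPM, with overlapping groups and a log2 fold change of -0.038 (SE 0.079, adjusted p = 0.876).

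Most members nevertheless lay slightly above 0 in TFAP2C KD, 31 of 37 against 49.1% of all genes, with medians of 0.071 for cytosolic and 0.096 for mitochondrial synthetases beside -0.0038 for all genes. The groups did not overlap in 20 of the 37, with TFAP2C KD higher in 19 and lower in 1 (VARS2), where 44.7% of all genes did not overlap, 22.4% on either side. The summed cytosolic level was 4083 and 4286 CPM with control siRNA and 4446 and 4392 CPM in TFAP2C KD, and the mitochondrial sum was 675 and 669 CPM against 720 and 701 CPM. The calls of members depended on the TFAP2C KD replicates. The cytosolic and mitochondrial medians were 0.076 and 0.089 without replicate 1, and 0.074 and 0.13 without replicate 2. Without replicate 2, 6 cytosolic genes (FARSA, FARSB, KARS, VARS, WARS and YARS) and 3 mitochondrial genes (CARS2, LARS2 and MARS2) passed as higher, in a fit that called 2825 genes in all, and without replicate 1 no member passed, in a fit that called 537. Of the 27 partner genes 0 were called by edgeR and 0 by DESeq2 (3 under an unadjusted p of 0.05), and of the 19 amino acid response genes tested 0 by either (2 under 0.05).

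Finally, the difference of the changes between the experiments was tested itself, by fitting the 8 libraries together on 13179 genes. It passed for 9 of 37 members, each with the more positive change in the libraries labelled UBA2 KD, where 2.37% of all genes passed and 1.47% in that direction. These were 8 of the 20 cytosolic genes, 0 of the 16 mitochondrial genes (0 by DESeq2, and HARS2 alone under an unadjusted p of 0.05), and XPOT. The change in TFAP2C KD less that in the libraries labelled UBA2 KD was -0.64 for CARS (SE 0.095, adjusted p = 0.0015), -0.62 for SARS (SE 0.078, adjusted p = 0.000418) and -0.59 for AARS (SE 0.089, adjusted p = 0.00184). It was -0.58 for XPOT (SE 0.095, adjusted p = 0.00296) and -0.56 for GARS (SE 0.086, adjusted p = 0.0019). MARS, TARS, WARS and YARS followed with differences from -0.41 to -0.37. EPRS, IARS, LARS, NARS and FARSB rose in the libraries labelled UBA2 KD, but their difference between the experiments did not pass (from -0.28 to -0.082). CARS, SARS, AARS, GARS and XPOT were the 5 that passed without control siRNA replicate 2, control replicate 1, control replicate 2 or UBA2 KD replicate 1, and without TFAP2C KD replicate 2 the number was 14, of which 13 were more positive with the UBA2 KD label and 1, FARSA, was more positive in TFAP2C KD (difference 0.32, adjusted p = 0.0127). Treatment, its length and the annotation differ between the experiments along with the targeted gene, and their parts in the difference cannot be told apart.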

How the data were processed

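Total RNA of 8 HCT116 libraries was sequenced as mRNA. The authors named TopHat2 and HTSeq 0.9.1 with hg19, and deposited raw read counts as a table for each experiment, not normalized. The TFAP2C table carries GRCh38 positions and Ensembl gene types, the UBA2 table hg19 positions. The strand setting is not given in the sources used here. Groups and replicates came from the labels. Nothing there says that replicates are separate cultures, so p-values measure only the spread between these samples. The members and gene lists were chosen with earlier results of these data known.

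In R 4.3.3, each experiment was fitted separately with edgeR 4.0.16 (filterByExpr, TMM, two-sided quasi-likelihood test) on all genes, with Benjamini-Hochberg adjustment and a threshold of 0.05. CPM use TMM-scaled library sizes. SE is the size of the log2 fold change over the root of F. Levels between genes are per kb of listed length. Tests on single genes that rank or permute the libraries cannot pass 0.05 with 2 libraries per group. Named genes were all members called in an experiment, XPOT and at most 6 called genes of each further list. Other members, partner genes and markers were added to these with their values known. Alternatives were DESeq2 1.42.0, other scalings and filters, a replicate block, a fit of all 8 libraries and each library left out. The code was tested on simulated data.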

Additional observations from a re-analysis of the deposited data

How the results depend on the processing

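The 14 calls of members in the UBA2 experiment were recomputed under 11 alternatives each, and 153 of 154 kept their direction and side of the threshold. The exception was FARSB without control replicate 2. Scaling by library size only moved the median log2 fold change there to 0.29 for cytosolic and 0.020 for mitochondrial synthetases, and leaving out each library gave 0.28 to 0.33 and -0.0030 to 0.043. The number of mitochondrial synthetases called was 0 to 1 when each library was left out. In TFAP2C KD the number called without each library ranged from 0 to 6 for cytosolic and from 0 to 3 for mitochondrial synthetases, and for the difference between the experiments from 5 to 14 members. The cause of these shifts was not tested.

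Over all genes, the number called in TFAP2C KD was 111, against 398 without a filter, 172 with the replicate block and 271 with all 8 libraries in the fit. In the UBA2 experiment it was 1336 (738 higher and 598 lower), against 665 with the Wald test of DESeq2 (443 higher and 222 lower) and 696 with all 8 libraries, while scaling by library size only gave 588 higher and 805 lower. For the difference it was 313, against 607 without a filter and 173 with the replicate block. With the replicate number as a block, 13 cytosolic and 0 mitochondrial synthetases were called in the UBA2 experiment, 0 and 0 in TFAP2C KD, and 6 members for the difference. The labels give no origin for the shared numbers, and the deviations of same-numbered samples correlated at -0.14 in the TFAP2C experiment and 0.074 in the UBA2 experiment over genes, so pairing was not assumed. The crossed pairing in the TFAP2C experiment, added after seeing the data, called 467 genes and 0 members.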

Other observations

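The control levels of ASNS, the asparagine synthetase gene and a known ATF4 target, and of CHAC1 are given for each experiment without a comparison, since the tables were counted on different annotations and normalized separately. Both genes were picked out after their values had been seen. ASNS had 284 and 291 CPM in the DMSO controls and 11 and 14 CPM with control siRNA. CHAC1 had 8.12 and 9.54 CPM in the DMSO controls and 21.3 and 30.4 CPM with control siRNA. The cells carry the same shRNA construct by their labels. Overlaps of ASNS and CHAC1 with other genes were not checked, and no difference between the control groups was tested.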
